A study of Rattus norvegicus with 4 samples.

Results

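The translation control genes that act downstream of mTOR were examined in rat Schwann cells (SCs) carrying an extra source of the Egr2 promoter antisense RNA (Egr2-AS). The genes were chosen by name, at a time when earlier results of these data were known. They are Eef2k, Eef2, Eif4ebp1, Eif4ebp2, Eif4e, Eif4g1, Rps6kb1, Rps6kb2, Pdcd4 and Larp1. Of these 10 genes, 8 were counted and all 8 passed the limit of at least 10 counts in at least 2 samples, among 12446 genes tested of 17949 in all. Eif4g1 and Larp1 were not analysed here.

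The cells were primary SCs from rat sciatic nerve, kept in medium with 10% serum, 4 μM forskolin and 5 ng/ml heregulin-β1, so that all samples received a growth factor of the neuregulin family and an agent that raises cAMP. Lenti-AS cells were infected with a lentivirus made from a vector with a DsRed reporter into which the Egr2-AS was cloned, and Lenti-GFP cells with the control lentivirus that carries a green fluorescent protein, for 48 h at 2 infectious units per cell with polybrene. The groups therefore differ in the reporter as well as in the antisense RNA. Each group had 2 samples, described as biological replicates, and rat strain and age are not given in the sources used here. Total counts lay between 74024323 and 96185890 per sample, and 1 CPM, the unit of level that relates a count to its library size, corresponded to 75.2 to 94.8 counts. Levels are given as CPM on library sizes scaled by edgeR's TMM method, which are not divided by gene length, so levels are compared between samples and not between genes.

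mTOR complex 1 is a protein kinase complex that links growth factors and amino acids to protein synthesis. When it is active it phosphorylates the 4E-BP proteins, which then release the cap-binding protein eIF4E so that the scaffold eIF4G can join it, and it activates the S6 kinases, which act on translation factors and their regulators, among them eEF2K and PDCD4. In SCs this pathway is known for its part in growth, radial sorting and myelination and in the response to nerve injury. Most of this control acts on proteins through phosphorylation, which RNA counts do not measure.

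The transcript of Eef2k, the kinase that phosphorylates and inhibits the elongation factor eEF2, was higher in Lenti-AS, with a fold change of 1.34. It was the only one of the 8 genes called, against 1.31% of the 12446 genes tested called in that direction, and 0 of the 8 were called lower, against 0.667%. Calls were made with edgeR's quasi-likelihood test and needed a Benjamini-Hochberg adjusted p under 0.05 together with a fold change of 1.3 or more. At an unadjusted p under 0.05, which 21.8% of all genes tested reached, there were 2 of the 8 genes higher (Eef2k and Eif4ebp2) and 0 lower. DESeq2 called Eef2k alone, against 3.92% of genes called higher and 1.12% called lower by that tool. These shares are of all 12446 genes, and DESeq2 gave 2413 of them no adjusted p, so they could not be called. The transcript of Eef2, whose protein is the substrate of the kinase, had a fold change of 0.994. Its Lenti-AS samples lay on either side of the Lenti-GFP samples.

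To show the DNA upstream of the gene that was called, of the gene of its substrate and of the 4E-BP gene with the widest spread, the 250 bases before the annotated start are printed for 3 genes. The sequences are RefSeq's for the GRCr8 assembly, 5′ to 3′ on the strand of the gene, whereas the reads were counted on rn6. Capitals mark the motifs searched. Eef2k lies on the plus strand (chr1:184824170-184824419), and Eef2 (chr7:9189239-9189488) and Eif4ebp2 (chr20:29942923-29943172) on the minus strand.
Eef2k: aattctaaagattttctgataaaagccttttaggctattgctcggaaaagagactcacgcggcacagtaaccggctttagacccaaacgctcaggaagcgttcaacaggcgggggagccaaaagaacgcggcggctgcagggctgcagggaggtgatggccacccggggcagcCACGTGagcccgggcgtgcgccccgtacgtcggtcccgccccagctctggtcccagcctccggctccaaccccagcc
Eef2: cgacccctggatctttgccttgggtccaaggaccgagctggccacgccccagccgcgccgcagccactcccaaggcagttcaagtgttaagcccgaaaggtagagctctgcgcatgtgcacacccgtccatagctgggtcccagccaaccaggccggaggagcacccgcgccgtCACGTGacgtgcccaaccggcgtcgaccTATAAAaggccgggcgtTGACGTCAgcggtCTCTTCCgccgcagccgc
Eif4ebp2: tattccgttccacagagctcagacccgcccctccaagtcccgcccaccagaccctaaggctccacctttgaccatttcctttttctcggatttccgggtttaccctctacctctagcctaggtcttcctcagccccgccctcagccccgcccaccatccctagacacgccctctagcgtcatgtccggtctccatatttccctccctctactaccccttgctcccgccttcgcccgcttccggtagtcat
The motif CACGTG, the palindromic E-box read by factors such as Myc and the MiT family, stood 77 to 72 bases before the start of Eef2k and 76 to 71 bases before that of Eef2. It was also found in the window of Eif4e, on 2 occasions, and so in 3 of the 7 genes with a window. Of all 33469 windows of this length 5.59% held it, a share that is not matched for base content. G and C made up 62% of the Eef2k window, 66.4% of that of Eef2 and 51.6% of that of Eif4e, against a median of 51.2% over all windows. The Eef2 window also held TATAAA (12.9% of all windows), the cAMP response element TGACGTCA (1.59%) and, 18 to 12 bases before the annotated start, the pyrimidine run CTCTTCC (4.89%), which was added to the search after the sequence had been seen and was searched on the strand of the gene alone. Eef2 mRNA is known for a pyrimidine tract at its 5′ end, the feature read by LARP1. The letters GCCATNTT, a core of YY1 sites, were found in the window of Rps6kb2 alone (4.23% of all windows). The AP-1 letters TGANTCA (6.34%), the Egr letters GCGGGGGCG (2.45%) and TGATGNAA, a composite element of ATF4 (3.40%), were in none of the 7 windows, which says only that these letters are not there. Except for the pyrimidine run, both strands were searched. The Eef2k window held none of these letters besides the E-box, and the Eif4ebp2 window held none. A match is a description of the letters and not of a bound site.

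**Figure D1:**
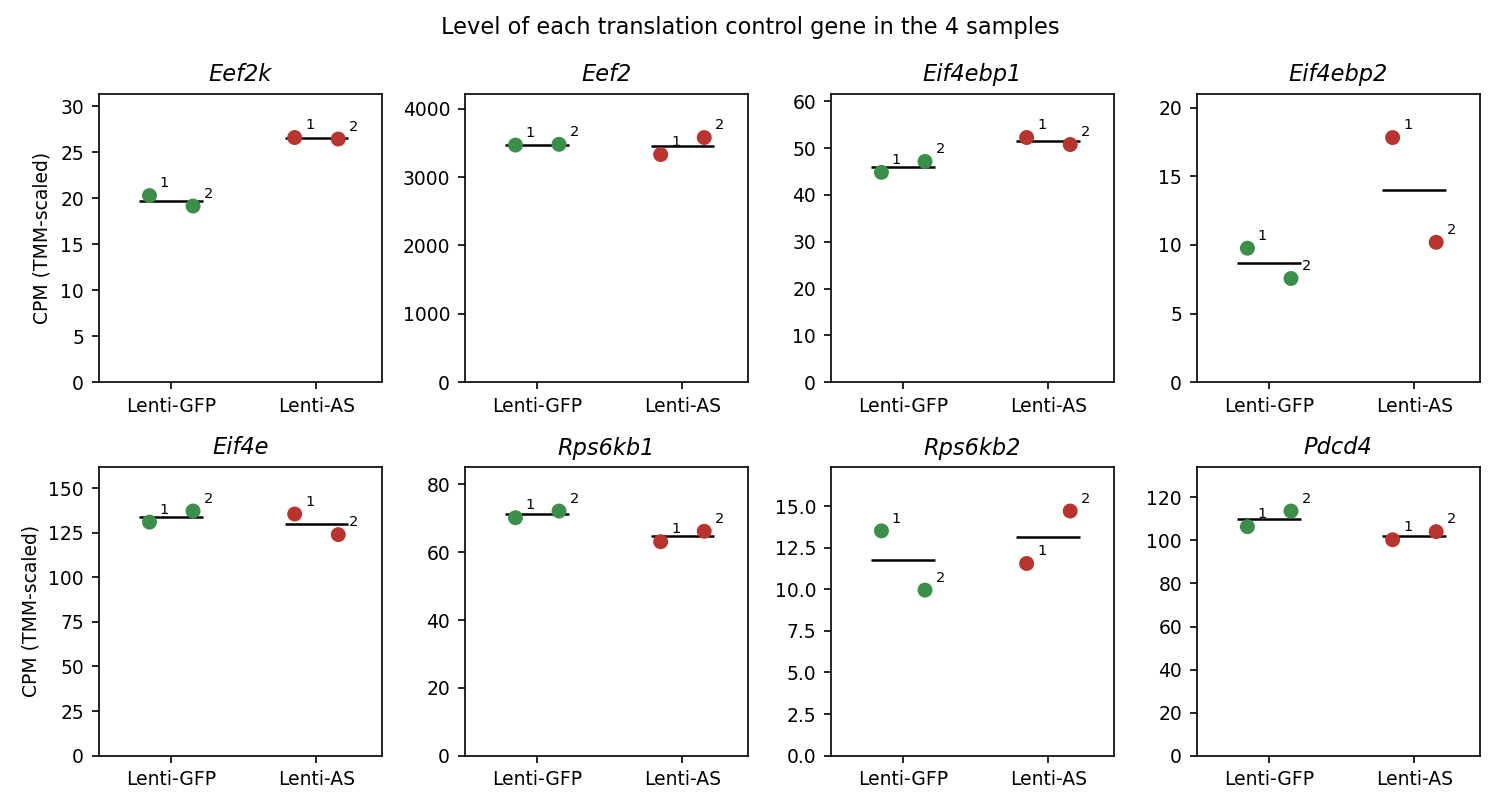
CPM of each of the 8 genes (vertical axis, from 0) in the Lenti-GFP samples (green) and Lenti-AS samples (red), with the replicate number beside each point and the group mean as a line. For Eef2k both Lenti-AS samples lie above both Lenti-GFP samples with a gap of 6.14 CPM, whereas Eif4ebp2 is high in Lenti-AS 1 and close to Lenti-GFP in Lenti-AS 2.

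Among the genes of the elongation step, Eef2k had 20.3 and 19.1 CPM in Lenti-GFP against 26.6 and 26.4 CPM in Lenti-AS, from 1894, 1815, 2331 and 1987 counts. The groups did not overlap, and the 6.14 CPM between their nearest samples was larger than the distance between replicates, 1.14 CPM in Lenti-GFP against 0.164 CPM in Lenti-AS. Counting error alone was at most 2.35% per sample. Lenti-GFP had a mean of 19.7 ± 0.806 CPM (SD, n = 2) and Lenti-AS one of 26.5 ± 0.116 CPM (SD, n = 2), which the fit gave as a log2 fold change of 0.43 (standard error 0.07, 95% interval 0.26 to 0.60) and an adjusted p = 0.0463 over 12446 genes in edgeR. By its p-value Eef2k was in position 224 of the genes tested, so it lay just inside the threshold. DESeq2 gave an adjusted p = 0.000754 with the same log2 fold change of 0.43, while limma-voom gave an adjusted p = 0.0555, which is not a call.

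The size of the Eef2k change was steadier than its call. It was 0.42 without Lenti-AS 1 and 0.43 without Lenti-AS 2, where the spread comes from the Lenti-GFP samples alone. Without Lenti-GFP 1 it was 0.47 and without Lenti-GFP 2 it was 0.39, and the adjusted p in edgeR was then 0.346 and 0.518, which is not a call. In these fits the spread comes from the Lenti-AS samples alone, and the single Lenti-GFP sample is assumed to vary like them.

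**Figure D2:**
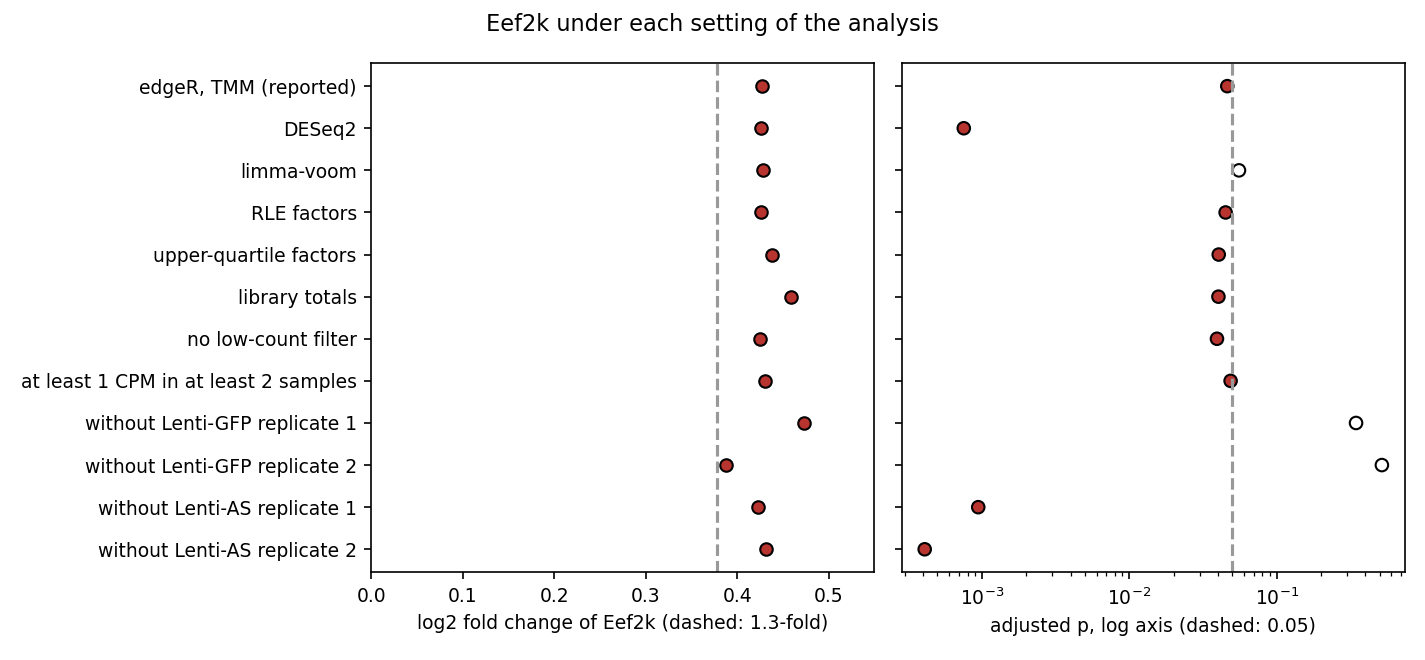
Log2 fold change of Eef2k (left, dashed line at 1.3-fold) and its adjusted p (right, log axis, dashed line at 0.05, filled points under it) for edgeR with TMM factors and each alternative test, scaling, filter and left-out sample. The fits with a replicate term (adjusted p = 0.126 in edgeR, not a call) and with no fold limit are not shown. The log2 fold change stays between 0.39 and 0.47, while the adjusted p runs from 0.000410 to 0.518.

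Markers of dividing cells moved with the same contrast. Of 10 proliferation markers 7 were called higher, against 1.31% of all genes tested, and their summed level was 1230 and 1286 CPM in Lenti-GFP against 1722 and 1676 CPM in Lenti-AS. In bulk RNA more cells of a kind and more RNA per cell cannot be told apart, and the part of this shift in the Eef2k result was not tested. The genes whose pattern over the 4 samples was most like that of Eef2k, by root-mean-square distance of centred log2 CPM among 7801 genes whose mean reached 10 CPM, were Ptprg (0.0150), Ddias (0.0184), Cdip1 (0.0186), Dusp15 (0.0195) and Depdc1 (0.0195). None of the 5 was called by edgeR, and that their fold changes are near that of Eef2k follows from how they were picked.

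Eef2, which encodes the factor that moves the ribosome along the mRNA, had 3469 and 3480 CPM in Lenti-GFP against 3330 and 3579 CPM in Lenti-AS. The Lenti-AS samples lay on either side of the Lenti-GFP samples. Its log2 fold change was -0.01 (standard error 0.06), and the 95% interval of the fold change ran from 0.898 to 1.10, so changes of 1.3-fold lie outside it (adjusted p = 0.952 in edgeR). RefSeq annotates 5 further loci named as copies of Eef2 and 10 of Eif4e, and since the treatment of reads with several matches is not stated, reads of these genes may be split. For Eef2k, RefSeq names 1 such locus.

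The ratio of Eef2k to Eef2 within a sample does not depend on library scaling. It was 0.00585 and 0.00550 in Lenti-GFP against 0.00799 and 0.00739 in Lenti-AS, as CPM over CPM. The groups did not overlap, and Lenti-AS was higher by 1.35-fold between the group means of the log2 ratio. An exact permutation test (two-sided) gave p = 0.333, the smallest that 2 samples against 2 allow, and 0.555 after adjustment over the 5 pairs of genes compared.

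The 4E-BP proteins bind eIF4E and keep it from the cap complex. Eif4ebp1 had 44.8 and 47.1 CPM in Lenti-GFP against 52.2 and 50.7 CPM in Lenti-AS. The groups did not overlap, with 3.61 CPM between the nearest samples against 2.33 CPM between the Lenti-GFP samples. The log2 fold change of 0.16 (standard error 0.07, 95% interval -0.0046 to 0.33) did not pass the test (unadjusted p = 0.0548, adjusted p = 0.238 in edgeR).

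Eif4ebp2 had the largest fitted fold change of the 8 genes and also the widest spread. It had 9.76 and 7.55 CPM in Lenti-GFP against 17.8 and 10.2 CPM in Lenti-AS, with 911, 716, 1562 and 766 counts. The value of Lenti-AS 1 stood apart, while that of Lenti-AS 2 was 0.431 CPM above the nearest Lenti-GFP sample. The Lenti-AS samples differed by 1.75-fold, and counting error was at most 3.74% per sample. The fit gave a log2 fold change of 0.70 (standard error 0.27, 95% interval 0.03 to 1.36), an unadjusted p = 0.0437 in edgeR and, over all genes, an adjusted p = 0.217. Without Lenti-AS 1 the log2 fold change was 0.24 (adjusted p = 0.252). Without Lenti-AS 2 it was 1.04 and passed the threshold (adjusted p = 7.108e-08), a fit in which the only Lenti-AS sample is assumed to vary like the Lenti-GFP samples.

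Among the Schwann cell markers, Sox10 was also high in Lenti-AS 1, with 163 CPM against 61.2 CPM in Lenti-AS 2. The 9 Schwann cell markers read summed to 5840 and 5843 CPM in Lenti-GFP, 6846 CPM in Lenti-AS 1 and 6399 CPM in Lenti-AS 2. One of them, Egr2, whose promoter the antisense RNA is named for, had 49.2 and 42.1 CPM in Lenti-GFP against 61.2 and 54.0 CPM in Lenti-AS. Both Lenti-AS values were above both Lenti-GFP values, with a log2 fold change of 0.33 (unadjusted p = 0.0194, adjusted p = 0.1515 in edgeR) that was not called. The strand setting of the counting is not given, so reads of an antisense transcript over its exons could not be told apart from those of Egr2. The paper reports less EGR2 protein, a less accessible Egr2 locus and lower Egr2 promoter activity with the Egr2-AS. Those are other measures than the RNA level read here. Of 8 fibroblast markers, Dcn, Lum, Thy1 and Fap had at most 6 counts in any sample, and the sum, carried by collagen genes, was 4259 and 3813 CPM in Lenti-GFP, 4673 CPM in Lenti-AS 1 and 2814 CPM in Lenti-AS 2. The collagen genes did not move together, with Col1a1 at 841 and 721 CPM in Lenti-GFP, 2131 CPM in Lenti-AS 1 and 290 CPM in Lenti-AS 2, whereas Col3a1 had 3261 and 2955 CPM in Lenti-GFP against 2198 and 2400 CPM in Lenti-AS. Of the markers of macrophages 6 of 8, and of endothelial cells 5 of 6, were under 1 CPM in all samples. Lenti-AS 2 carried globin counts, with a summed level of 3002 CPM over 6 red cell markers against at most 7.27 CPM in the others. The part of these differences in the Eif4ebp2 values was not tested.

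Eif4e itself, the cap-binding protein, had 131 and 137 CPM in Lenti-GFP against 135 and 124 CPM in Lenti-AS. The groups overlapped. Eif4e had a log2 fold change of -0.05 (standard error 0.07, adjusted p = 0.709 in edgeR), and the 95% interval of the fold change was 0.865 to 1.08.

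The balance of the inhibitors to their target was also read within samples. The ratio of Eif4ebp1 to Eif4e was 0.342 and 0.344 in Lenti-GFP against 0.386 and 0.409 in Lenti-AS, without overlap, a difference of 0.21 on the log2 scale. That of Eif4ebp2 to Eif4e was 0.0745 and 0.0551 in Lenti-GFP against 0.132 and 0.0822 in Lenti-AS, a difference of 0.70 on the log2 scale that was 0.36 without Lenti-AS 1 and 1.04 without Lenti-AS 2. For both, the exact permutation test gave p = 0.333 (0.555 adjusted over the 5 pairs), the smallest possible here. The ratio of Eif4ebp1 to Eif4ebp2 overlapped between the groups, with 4.59 and 6.24 in Lenti-GFP against 2.93 and 4.98 in Lenti-AS (exact permutation test, p = 0.667, also 0.667 after adjustment).

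**Figure D3:**
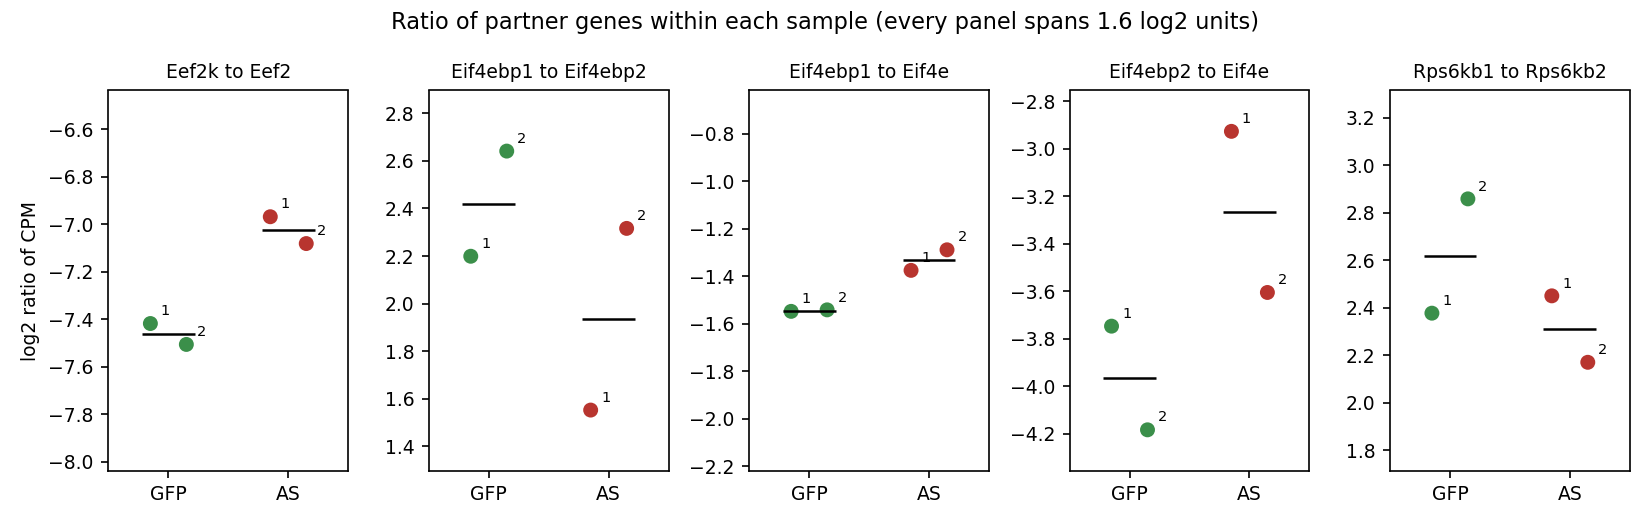
Log2 ratio of the CPM of 5 pairs of partner genes in each sample (points, with replicate number) and the group means (lines), with the same span of 1.6 log2 units in every panel. The groups lie apart for Eef2k to Eef2 and for either 4E-BP gene to Eif4e, and overlap for Eif4ebp1 to Eif4ebp2 and for Rps6kb1 to Rps6kb2.

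The S6 kinases are the second arm of mTOR complex 1. Rps6kb1, which encodes S6K1, had 70.2 and 72.2 CPM in Lenti-GFP against 63.1 and 66.2 CPM in Lenti-AS. Its Lenti-AS values were both lower, with a gap of 4.01 CPM, where replicates lay 1.97 CPM apart in Lenti-GFP against 3.07 CPM apart in Lenti-AS. This gave a log2 fold change of -0.14 (standard error 0.07, 95% interval -0.30 to 0.03, adjusted p = 0.289 in edgeR).

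Rps6kb2, which encodes S6K2, had 13.5 and 9.95 CPM in Lenti-GFP against 11.5 and 14.7 CPM in Lenti-AS, and the groups overlapped. Its replicates differed by 1.36-fold in Lenti-GFP against 1.27-fold in Lenti-AS, and the log2 fold change of 0.16 (standard error 0.18, adjusted p = 0.643 in edgeR) had a 95% interval of -0.29 to 0.61, wide enough to hold a 1.3-fold change. The ratio of Rps6kb1 to Rps6kb2 was 5.20 and 7.25 in Lenti-GFP against 5.47 and 4.50 in Lenti-AS (exact permutation test, p = 0.667, also 0.667 after adjustment). The ribosomal protein S6 transcript, Rps6, whose protein is the namesake substrate of these kinases, had 242 and 247 CPM in Lenti-GFP against 251 and 202 CPM in Lenti-AS (log2 fold change -0.11, adjusted p = 0.555).

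Pdcd4, which encodes an inhibitor of the helicase eIF4A that S6 kinases mark for degradation, had 106 and 114 CPM in Lenti-GFP against 100 and 104 CPM in Lenti-AS. The groups did not overlap, but the gap of 2.32 CPM was smaller than the 7.27 CPM between the Lenti-GFP samples. The fit gave a log2 fold change of -0.11 (standard error 0.06, 95% interval -0.26 to 0.05, adjusted p = 0.371 in edgeR).

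**Figure D4:**
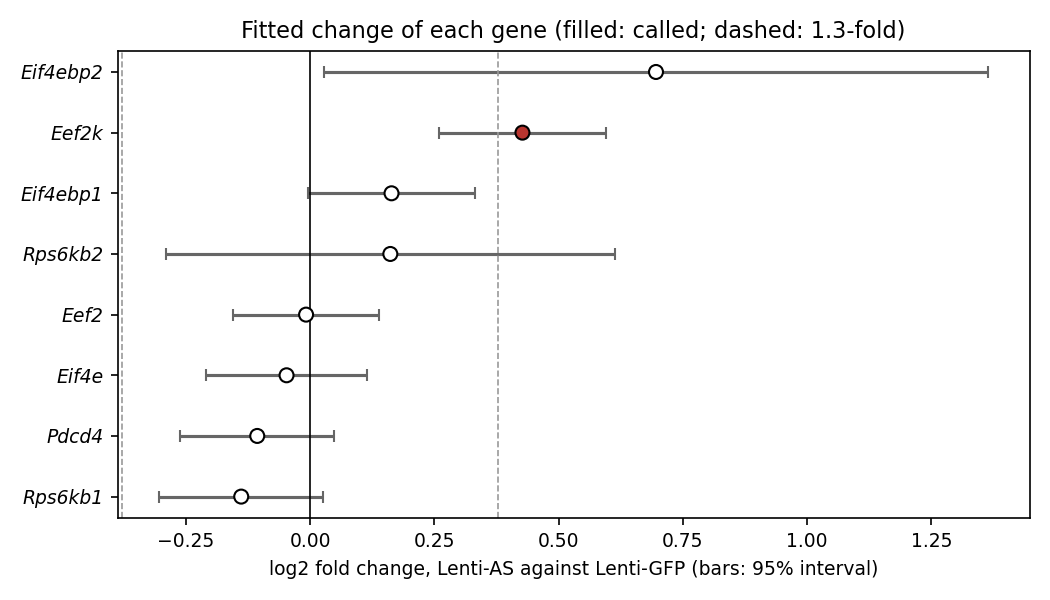
Fitted log2 fold change of each gene (points) with its 95% interval (bars), the called gene filled and dashed lines at 1.3-fold in either direction. Eef2k is called at 0.43, Eif4ebp2 has the widest interval (0.03 to 1.36), and the intervals of Eef2, Eif4e, Eif4ebp1, Rps6kb1, Rps6kb2 and Pdcd4 include 0.

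Set side by side, the fitted level was above that of Lenti-GFP for 4 of the 8 genes and below it for 4, with a median log2 fold change of 0.08, against 0.01 over all genes tested. In 3 genes (Eef2k, Eif4ebp1 and Eif4ebp2) each Lenti-AS sample exceeded each Lenti-GFP sample, and in 2 (Rps6kb1 and Pdcd4) both were below. Over all genes tested the groups did not overlap in 54.9%, with 27.7% higher and 27.2% lower, so 5 of 8 is near the background.

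The rest of the translation machinery and of the mTOR pathway was read from 9 lists of 110 genes, of which 106 were counted and 105 tested. edgeR's quasi-likelihood test called 0 of the 105 in either direction, against 1.98% of all genes tested. At an unadjusted p under 0.05 there were 13 higher and 11 lower, or 24 of 105, near the 21.8% of all genes tested. DESeq2 called 4 higher and 0 lower, where it called 3.92% and 1.12% of all genes, those without an adjusted p included. The number called by limma-voom was 0. The median log2 fold change over the 105 genes was -0.04, with 41 higher and 64 lower in fitted level.

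Of the 15 further genes of the cap complex, 5 had a higher and 10 a lower fitted level (median log2 fold change -0.04). Eif4a2, an eIF4A helicase of the same family that PDCD4 binds, had 566 and 539 CPM in Lenti-GFP against 437 and 438 CPM in Lenti-AS. Its adjusted p = 0.0447 in edgeR was under 0.05, but its log2 fold change of -0.34, a fold change of 0.791, did not reach 1.3-fold. The main eIF4A gene, Eif4a1, had a log2 fold change of -0.08 (adjusted p = 0.459). Pabpc1, the poly(A)-binding protein that meets eIF4G at the cap, had 111 and 115 CPM in Lenti-GFP against 171 and 124 CPM in Lenti-AS, high in Lenti-AS 1, and was called by DESeq2 (adjusted p = 0.0486) and not by edgeR (adjusted p = 0.204). The kinases of eIF4E, Mknk1 and Mknk2, both had a log2 fold change of 0.33 to 0.34 and did not pass (adjusted p = 0.239 and 0.228). Mknk2 was highest in Lenti-AS 1, at 48.7 CPM against 36.6 CPM in Lenti-AS 2. Without Lenti-AS 2 its log2 fold change was 0.53, in a fit with a single Lenti-AS sample.

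For the 13 eIF3 subunits the median log2 fold change was -0.05. Eif3f had 64.1 and 62.3 CPM in Lenti-GFP against 97.7 and 78.9 CPM in Lenti-AS, a log2 fold change of 0.48 with adjusted p = 0.0876 in edgeR and 0.000817 in DESeq2. The other 12 lay between -0.17 and 0.04 on the log2 scale.

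Of 12 other elongation and termination factors, 3 had a higher and 9 a lower fitted level. The eEF1A gene Eef1a1 was at -0.02 (adjusted p = 0.885) and Eef1g at -0.01 (adjusted p = 0.915). None of the 6 tested enzymes of the diphthamide pathway, which modifies eEF2, was called by edgeR, DESeq2 or limma-voom, with 0 at an unadjusted p under 0.05 and log2 fold changes from -0.23 to 0.11. For the 15 genes of the eIF2 branch the median was -0.11, with 11 lower in fitted level, 2 of them at an unadjusted p under 0.05.

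Of the 13 tested regulators of eEF2K, 4 had a higher and 9 a lower fitted level (median log2 fold change -0.04). The AMPK catalytic subunit Prkaa1 had a log2 fold change of -0.03. Prkaca, a catalytic subunit of protein kinase A, which the forskolin in the medium activates through cAMP, had 24.6 and 23.8 CPM in Lenti-GFP against 43.2 and 32.4 CPM in Lenti-AS. Its log2 fold change of 0.64 (standard error 0.14), the largest of the 13, gave an adjusted p = 0.0788 in edgeR and 0.000471 in DESeq2. Prkacb, which encodes another catalytic subunit of protein kinase A, was at 0.04 (adjusted p = 0.771 in edgeR).

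Of the 5 other La-related genes, Larp4b had 63.6 and 64.2 CPM in Lenti-GFP against 82.8 and 80.4 CPM in Lenti-AS. The groups did not overlap, and the log2 fold change was 0.35 (adjusted p = 0.0558 in edgeR). Larp1b, the paralog of Larp1, was at 0.03.

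Upstream, 12 genes of the mTOR complexes and their inputs had a median log2 fold change of 0.13, with 4 higher and 3 lower at an unadjusted p under 0.05 (21.8% of all genes tested in either direction) and 0 called by edgeR. Mtor had 71.0 and 59.2 CPM in Lenti-GFP against 76.5 and 89.8 CPM in Lenti-AS, without overlap. Its log2 fold change was 0.35, a fold change of 1.28 (adjusted p = 0.170 in edgeR). That is under the limit of 1.3-fold, so at this fold Mtor could not be called whatever its p. DESeq2 did not call Mtor here either, and the adjusted p that DESeq2 gave it is not reported here. The paper, which used DESeq2, reports a moderate rise of the Mtor transcript that was significant by its adjusted p. The missing call here does not test that statement. Rptor, the subunit that recruits 4E-BP and S6 kinase, was at 0.40 (adjusted p = 0.130 in edgeR, 0.0423 in DESeq2). Rheb, the GTPase that activates the complex, had 178 and 176 CPM in Lenti-GFP against 144 and 156 CPM in Lenti-AS, a log2 fold change of -0.24 (adjusted p = 0.104). Akt1s1 was high in Lenti-AS 1 alone, at 34.4 CPM, with 20.2 CPM in Lenti-AS 2 and 18.4 CPM in both Lenti-GFP samples.

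**Figure D5:**
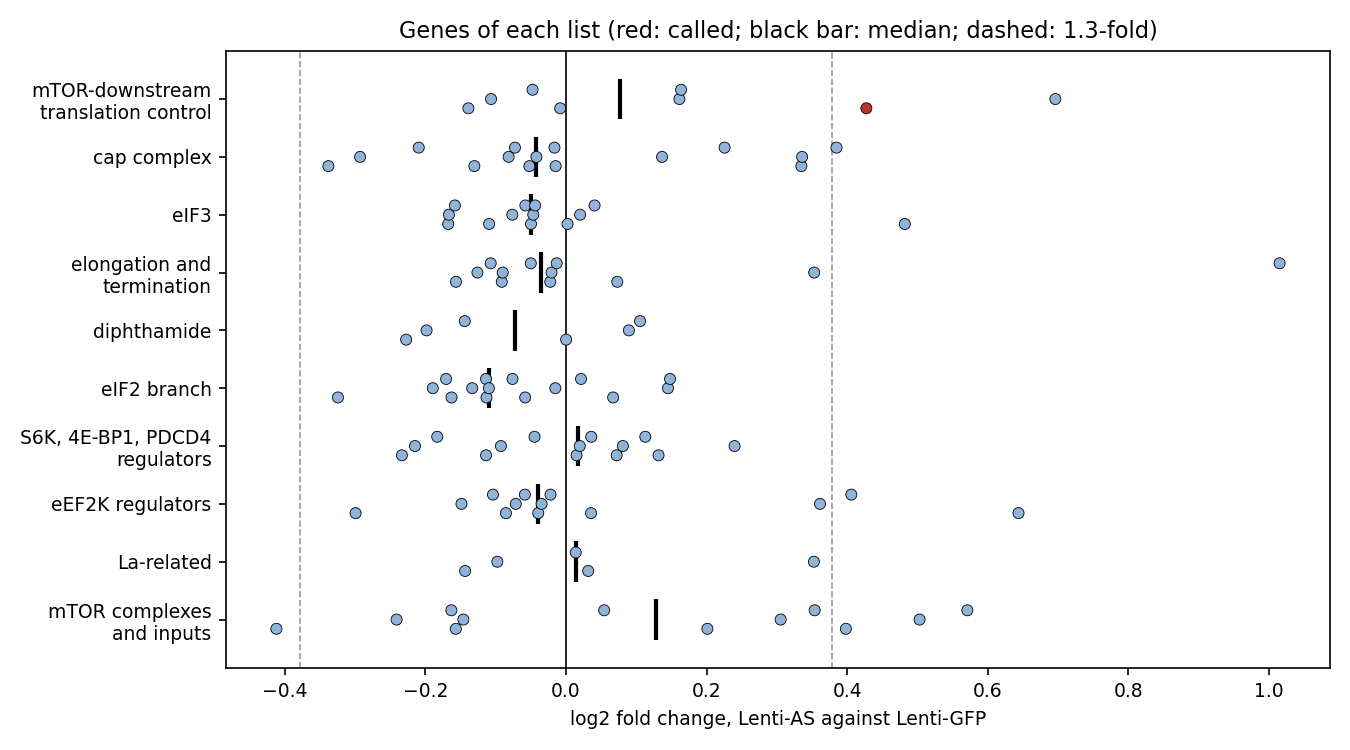
Log2 fold change of each tested gene in the translation control genes (top) and the 9 lists of related genes, with the median of each list as a black bar, called genes in red and dashed lines at 1.3-fold. Eef2k is the only gene called, and the medians lie between -0.11 for the eIF2 branch and 0.13 for the mTOR complexes and inputs.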

How the data were processed

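From each replicate 2 μg of total RNA was sequenced as 50 bp paired-end reads. Reads were aligned to rn6 and counted per gene with featureCounts on RefSeq exons. The paper's methods name hisat2 as the aligner and the submitters' processing notes name GSNAP. Versions, strand setting and treatment of reads with several matches are not given in the sources used here, so overlapping and copied genes are uncertain. The authors deposited raw whole-number counts per gene. From these, 1 row that repeats the header was dropped.

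Columns were mapped to samples by their names. The limit for a tested gene was 10 counts in 2 or more samples, and these genes were fitted with edgeR 4.0.16 in R 4.3.3 (TMM, glmQLFit, glmQLFTest, no covariate), and p-values were adjusted by Benjamini-Hochberg over all genes tested. The standard error comes from the F statistic. The code was tested on simulated data. Alternatives were DESeq2 1.42.0, limma-voom (limma 3.58.1), other scalings and filters, a replicate term, no fold limit and leaving out each sample. The cut-offs are those of the study, which used DESeq2. The genes and lists were chosen with earlier results of these data known, and the searched motifs after the values had been seen. Named were the 8 genes, Mtor, Rps6, the list genes called and the 5 closest profiles. Other list genes (Eif4a2 and Eif3f among them) were named after their values were seen. Eif3e was read under its older symbol Eif3el1. With 2 samples per group, permutation cannot give a two-sided p under 0.333. Some genes of the lists are not reported here.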

Additional observations from a re-analysis of the deposited data

How the results depend on the processing

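Of 104 values of the 8 genes under alternatives, 93 kept their direction and their side of the threshold. These include the values with no fold limit, which are those of the main fit and could not change direction. Eef2k was no longer called with limma-voom, with the replicate block or without either Lenti-GFP sample, and Eif4ebp2 was called only without Lenti-AS 2, so the count of these genes called higher was 0 with limma-voom and with the block, and 0 to 2 when 1 sample was left out. Genes near 0 changed direction. The log2 fold change of Eef2 became 0.0025 under upper-quartile scaling, 0.0238 under library totals and 0.0428 without Lenti-AS 1. It kept its negative sign without each other sample, down to -0.0612 without Lenti-AS 2. That of Eif4e ranged from -0.11 to 0.0152 and that of Rps6kb2 from -0.04 to 0.40, with Rps6kb2 at -0.0409 without Lenti-GFP 2 and -0.0222 without Lenti-AS 2. None of these was called.

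Over all genes, edgeR called 163 higher and 83 lower, and DESeq2 488 and 139. With 1 sample left out, 0 to 1266 were higher and 1 to 271 lower, with 0 and 1 without either Lenti-GFP sample, 570 and 271 without Lenti-AS 1, and 1266 and 253 without Lenti-AS 2. Of the 105 genes of the related lists, DESeq2 called 4 higher, library totals 1 higher (Larp4b), and no fold limit 1 lower (Eif4a2). With 1 sample left out, 0 to 9 were higher and 0 to 2 lower.

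Same-numbered samples share no stated culture or day, and their deviations did not go together (correlation -0.0176 across genes). With the replicate block, 3 genes were called higher and 14 lower, and Eef2k had a log2 fold change of 0.43 with an adjusted p = 0.126 in edgeR, in a fit with 1 residual degree of freedom fewer.

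All 5 ratios kept their direction with a pseudocount of 1 CPM and without each sample in turn. That of Eif4ebp1 to Eif4ebp2 ranged from -0.87 to -0.10 on the log2 scale when 1 sample was left out, with -0.10 without Lenti-AS 1. That of Eif4ebp2 to Eif4e ranged from 0.36 without Lenti-AS 1 to 1.04 without Lenti-AS 2, and that of Rps6kb1 to Rps6kb2 from -0.55 without Lenti-GFP 1 to -0.0669 without Lenti-GFP 2. With at most 2 samples per group, small changes may go undetected, and the smallest change that could be detected was not computed.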
